A study of Mustela putorius furo with 8 samples.

Results

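Cluster 4 of the CF cells was a group of pancreatic ductal epithelial (PDE) cells that carried the deposited class name centroacinar progenitor and held high counts of interferon-induced genes. Its members were all cells to which the authors' cell table gave the CF cluster number 4. They were 613 of the 4499 retained cells of the CF library of day 2, or 13.6% (95% interval 12.6 to 14.7%, exact Clopper-Pearson, counting error only). A further 9 cells were of day 5, 3 of day 7 and 1 of day 9, so that 626 of the 32945 cells of the series belonged to the cluster. No WT cell could belong to it, because cells of each genotype had been clustered on their own.

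The cells came from pancreata of newborn ferrets, 1 to 3 days old, that were wild type (WT) or homozygous for a knockout of CFTR (CFTR KO/KO, called CF). CFTR encodes the epithelial anion channel whose loss causes cystic fibrosis. Ductal cells of both genotypes had been carried through 10 passages and then polarized at an air-liquid interface (ALI), and 1 droplet library of 3' transcript tags was made for each genotype on day 2, 5, 7 and 9, with cells of several animals pooled. The comparison below is therefore within 1 CF library, between the 613 cells of cluster 4 and the 3886 other CF cells of day 2, and its counts stand without a replicate error.

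Interferons are secreted proteins that signal through cell-surface receptors, JAK kinases and STAT transcription factors. The genes that they induce encode sensors of foreign RNA, proteins that block viral replication, and ISG15, a ubiquitin-like protein that is attached to other proteins. Epithelia that face a lumen, such as those of airways and ducts, also make mucins, secretoglobins and hydrogen peroxide at their surface. Ductal epithelium forms bicarbonate-rich fluid in the pancreas, and centroacinar cells stand where the smallest ducts meet the acini.

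UMIs (unique molecular identifiers, each standing for 1 counted transcript) were summed over the cells of each side and scaled to 1000000 UMIs of all genes, which gives CPM. The sums were 14825907 UMIs in cluster 4 and 87502682 in the other CF day 2 cells. The median cell held 21152 UMIs and 4542 genes in cluster 4, against 17208.5 UMIs and 3911.5 genes in the others. Mitochondrial UMIs had medians of 6.16% and 7.14%. Of 32796 distinct barcodes among retained cells, 148 occurred in more than 1 library, among them those of 2 day 2 cells of cluster 4. Differences are log2 of CPM plus 1 in cluster 4 minus the same in the other cells, which understates the difference of genes near 1 CPM. Intervals of a ratio are exact, cover counting error only, and do not cover variation between animals or cultures. The cluster had been drawn from these same counts, so a difference between it and the remaining cells was described and not tested.

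Of 7756 genes with at least 10 CPM on either side, 385 were at least 2-fold higher in cluster 4 (4.96%) and 304 at least 2-fold lower (3.92%), and the median difference of all of them was 0.14. At 4-fold, 46 genes were higher (0.593%) and 102 lower (1.32%). Under the scaling of edgeR (TMM) all differences moved by -0.13, and 40.7% of the genes past 2-fold were then on the higher side, against 55.9% here. Under that of DESeq2 they moved by -0.12, and 42.4% were higher.

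The genes given for the cluster were looked at first. They are among its own leading genes, so that their order was fixed by the choice and is given as a description. All 6 of them were higher in cluster 4 than in the other CF day 2 cells, and in each case the cluster ranked first among the 12 CF clusters with at least 50 cells at day 2. ISG15 (151130 to 152308 on its sequence of the assembly ASM1176430v1.1, whose table names no chromosome) had 161 CPM in cluster 4 and 21.5 CPM in the other cells. The ratio was 7.49 (7.05 to 7.96). IFIT3 (474150 to 487168), which binds viral RNA ends with its relatives, had 61.2 against 6.70 CPM. The positions of an unnamed gene, LOC101675223 (466463 to 487153), overlap those of IFIT3, so that some tags of either may belong to the other if both lie on 1 sequence. LOC101675223 had 15.2 against 3.01 CPM.

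IFI6 (20261931 to 20265254), a small interferon-induced membrane protein, had the highest level of the 6, with 2970 against 762 CPM. ISG20 (6841997 to 6852910), an exonuclease that degrades RNA, had 658 against 145 CPM. The other markers were no interferon effectors. DUOXA2 (11455480 to 11459203), the maturation factor of the dual oxidase DUOX2, had 143 against 18.8 CPM. SCGB1A1 (8181657 to 8184897), the secretoglobin known from club cells of the airway, had 39.7 against 5.42 CPM, on 589 and 474 UMIs. All of these genes are protein coding.

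**Figure D1:**
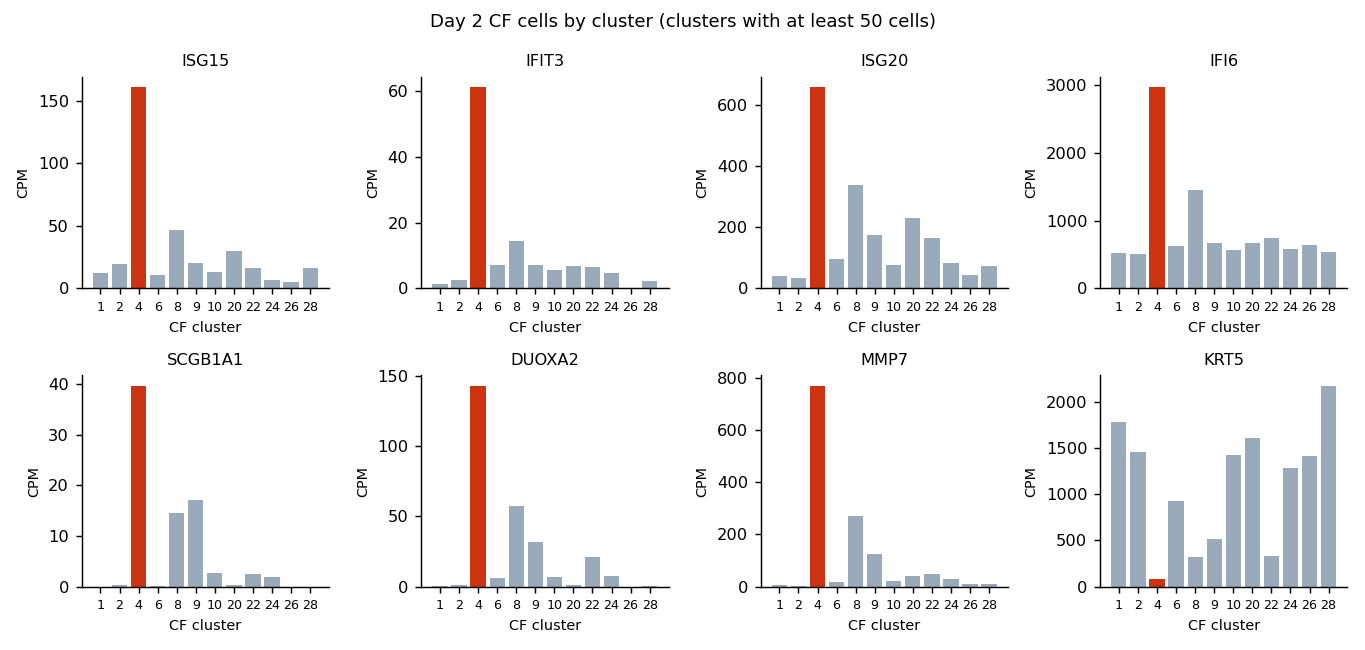
CPM of 8 genes in each of the 12 CF clusters with at least 50 cells at day 2, from summed UMIs of day 2 cells (bars from 0, cluster 4 in red, a vertical scale for each gene). Cluster 4 is the highest in every panel but KRT5, where it is the lowest of the 12.

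Among the day 2 clusters, CF cluster 8 was second for most of these genes. ISG15 had 47.1 CPM in cluster 8, 29.9 CPM in cluster 20 and a median of 16.04 CPM over the 11 clusters other than cluster 4. IFIT3 had 14.3 CPM in cluster 8, and IFI6 had 1452 CPM there. SCGB1A1 had 17.1 CPM in cluster 9 and 14.5 CPM in cluster 8, and its median over the 11 clusters was 0.392 CPM. Cluster 8 had been named ductal, and its cells were the deepest, with a median of 39320.5 UMIs.

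Of the class markers that the study had picked on these libraries for centroacinar progenitors, 9 reached 10 CPM, and 7 were at least 2-fold higher in cluster 4. They were ALDH1A1, TSPAN8 and 5 mucins, and the median difference of the 9 was 1.68. BCL2A1 (175 against 158 CPM) and KLF4 (35.9 against 28.3 CPM) differed by less, and TFF3, a trefoil peptide of the same marker list, was at only 2.50 against 1.73 CPM. The class markers of ductal cells had 2 of 6 at least 2-fold lower and none higher, those of acinar cells 0 of 7 in either direction, and those of centroacinar cells 1 of 3 higher. The 5 markers of proliferating cells summed to 2.09 CPM in cluster 4 and 33.6 CPM in the other cells. Only 8 other CF day 2 cells bore the progenitor name.

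Markers of other kinds of cell were near 0 in cluster 4. Those of endothelium summed to 0.135 CPM, of fibroblasts to 1.01 CPM, and of ciliated and tuft cells to 0.270 CPM, while those of endocrine cells and of acinar enzymes had no UMI. Only 2 of the 7 acinar enzyme genes listed were in the files. Of 7 leukocyte markers measured, PTPRC, CD3E and CSF1R had no UMI in the cluster, where the 3 counts taken as the limit of a 0 allow 0.202 CPM. CD68, which encodes a protein of lysosomes, had 39.0 against 17.9 CPM, and the monocyte receptor CD14 had 4.59 against 3.10 CPM. The 7 markers together summed to 44.0 and 21.6 CPM.

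The interferon effectors were described as a list of 67 genes, of which 49 were in the files and 36 reached 10 CPM on either side. In cluster 4, 15 of the 36 were at least 2-fold higher and 0 lower, where 4.96% and 3.92% of all genes were. The 15 include the given genes ISG15, IFIT3, IFI6 and ISG20, whose part in the count was fixed by the choice. Members under 10 CPM in the other cells, such as IFIT3, HERC6, USP18, CMPK2 and DTX3L, were counted only because cluster 4 held them higher. The median difference of the 36 was 0.87 against 0.14 for all genes, and 34 of them were above 0. Summed, the effectors made up 5988 CPM in cluster 4 and 2000 CPM in the other cells. Cluster 8 was again next among the day 2 clusters, at 3253 CPM, and the lowest cluster had 1473 CPM. IFI6 and ISG20 alone held most of the sum, and without them it was 2361 CPM in cluster 4 and 1464 CPM in cluster 8. That smaller sum still holds the given genes ISG15 and IFIT3. Cells of cluster 4 were deeper than the others, and with every cell thinned to 3000 UMIs 17 of 36 effectors were at least 2-fold higher, with a median difference of 0.96.

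**Figure D2:**
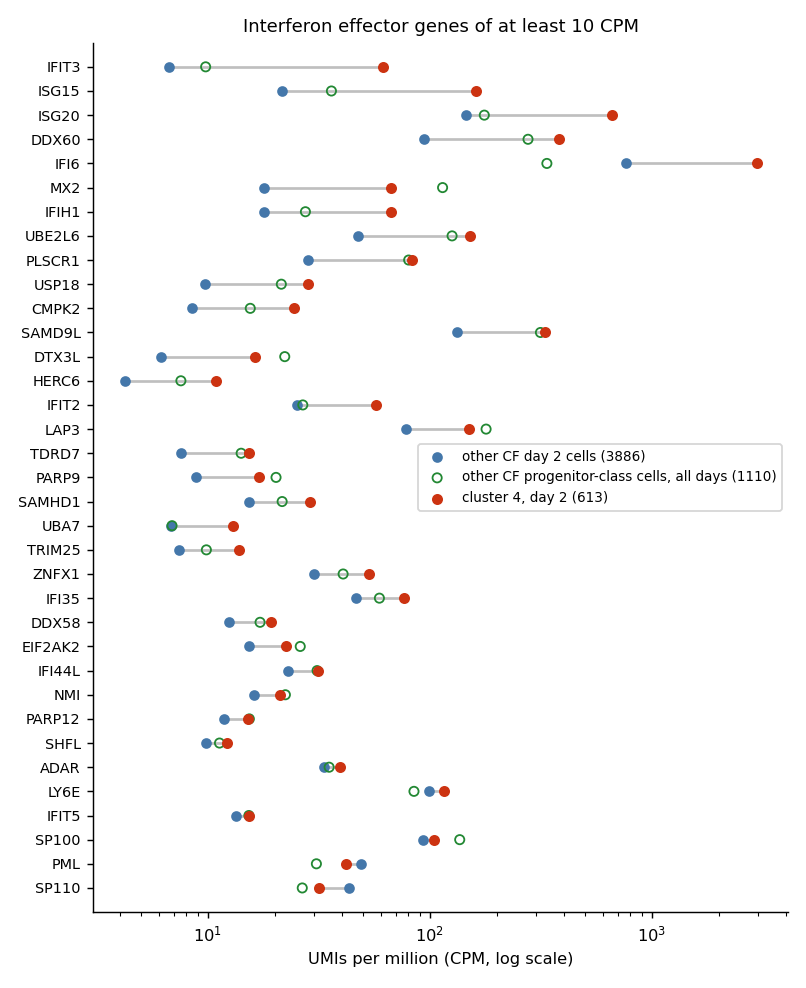
Level of 35 of the 36 interferon effectors of at least 10 CPM (horizontal, CPM on a log scale) in the 613 cells of cluster 4 at day 2 (red), the 3886 other CF day 2 cells (blue) and 1110 other CF cells of the progenitor class over all days (open green), in order of the difference at day 2. The red points lie right of the blue ones for all genes shown but SP110 and PML, while the green points of many genes lie close to the red ones.

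By role, the proteins that attach and remove ISG15 had 4 of 6 measured members at least 2-fold higher. These were ISG15 itself, its conjugating enzyme UBE2L6 (151 against 47.2 CPM), HERC6, of the ligase family that attaches it (10.9 against 4.23 CPM), and USP18, which removes ISG15 and damps the interferon receptor (28.3 against 9.71 CPM). The activating enzyme UBA7 had 12.95 against 6.83 CPM and the ligase TRIM25 13.8 against 7.41 CPM, both below 2-fold. ISG15 is a given gene, and HERC6, USP18, UBA7 and TRIM25 reached 10 CPM in cluster 4 alone. Of this group only UBE2L6 was free of both choices. Of the 3 IFIT genes, IFIT3 and IFIT2 (56.9 against 25.1 CPM) were at least 2-fold higher, and IFIT5 (15.2 against 13.4 CPM) was not. IFIT genes are paralogs, as are the MX and HERC pairs, and how tags shared between them had been counted is not given in the sources used here.

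Of the 3 measured RNA sensors, IFIH1, which binds long double-stranded RNA, had 66.8 against 17.9 CPM. DDX60, a helicase that aids such sensors, had 381 against 94.4 CPM. DDX58, the sensor RIG-I, had 19.2 against 12.4 CPM and stayed below 2-fold. Among the 6 genes that block viral replication, 3 were at least 2-fold higher, and MX2, a dynamin-like GTPase, led them with 67.0 against 17.9 CPM. SAMD9L had 330 against 133 CPM and CMPK2, a mitochondrial nucleotide kinase, 24.4 against 8.43 CPM. Of 4 genes of RNA degradation and RNA binding, ISG20 alone passed 2-fold. ADAR, which edits double-stranded RNA, had 39.3 against 33.2 CPM and EIF2AK2, the kinase PKR, 22.4 against 15.3 CPM.

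The remaining 14 effectors had 3 at least 2-fold higher, IFI6, the scramblase PLSCR1 (83.2 against 28.3 CPM) and the ubiquitin ligase DTX3L (16.3 against 6.15 CPM). The lowest of the 36 were the nuclear body proteins SP110 (31.6 against 43.0 CPM) and PML (41.7 against 48.9 CPM). Below 10 CPM, 13 effectors were left out of these counts. OASL had 108 UMIs in cluster 4 and 34 in the other cells, or 7.28 against 0.389 CPM, and RSAD2, the enzyme viperin, had 28 and 8 UMIs. MX1 had 14 and 84 UMIs and BST2, which tethers virus to the cell, 11 and 41 UMIs, so that these common interferon genes were close to undetected on both sides.

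Of 7 interferon genes listed, 5 were in the files, and no interferon alpha gene was in the list. IFNB1 and IFNG had no UMI in the CF day 2 library, IFNK had 4 UMIs, all outside cluster 4, and IFNL3 had 5 UMIs in cluster 4 and 20 in the other cells. IFNE, a type I interferon known from epithelia, had 75.1 against 32.6 CPM and was the only ligand to reach 10 CPM. Over the day 2 clusters IFNE was highest in cluster 4, next in cluster 22 (62.1 CPM) and cluster 8 (57.3 CPM), and lowest at 1.91 CPM.

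Of the 16 measured receptor and signalling genes, 3 were at least 2-fold higher and 0 lower, where 4.96% and 3.92% of all genes were. Their median difference was 0.34 against 0.14 for all genes. The 3 higher genes were IFNGR2, a chain of the interferon gamma receptor (368 against 123 CPM), IL10RB, a chain that the interferon lambda receptor shares (290 against 110 CPM), and USP18. USP18 is also counted among the effectors and reached 10 CPM in cluster 4 alone. The same shares of all genes stand beside every other list of this comparison, and 1 gene past 2-fold says little about a short list. Antigen presentation had 1 of 9 genes at least 2-fold higher. That gene was B2M, the light chain of class I molecules, at 5109 against 2476 CPM, followed by the immunoproteasome subunit PSMB9 at 14.6 against 7.59 CPM. Of the interferon gamma response list, 2 genes reached 10 CPM and 0 passed 2-fold. The chemokine CXCL10, a common target of interferon gamma, had 3.24 against 5.52 CPM.

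Surface and secreted products of the cluster were compared next. All 4 measured membrane mucins were at least 2-fold higher, with a median difference of 1.93. All 4 are also among the class markers that the study had picked on these libraries for centroacinar progenitors. MUC13 reached 10 CPM in cluster 4 alone. MUC1 had 2048 against 638 CPM, MUC16 289 against 80.1 CPM, MUC4 120 against 28.9 CPM and MUC13 17.3 against 2.59 CPM. Of 6 secreted airway and duct proteins, 5 were at least 2-fold higher. Besides SCGB1A1 these included the chemokine CXCL17 (553 against 148 CPM) and the gel-forming mucin MUC5AC (93.8 against 20.8 CPM). SCGB1A1 is a given gene that reached 10 CPM in cluster 4 alone, and MUC5AC is a class marker of the study for centroacinar progenitors. CLU, the chaperone clusterin, was the 1 lower gene, at 100.6 against 351 CPM.

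The dual oxidases, which release hydrogen peroxide at the surface, were split by pair. DUOX2 (53.3 against 15.03 CPM) and its factor DUOXA2 were at least 2-fold higher, while DUOX1 (52.5 against 77.0 CPM) and its factor DUOXA1 (12.7 against 21.9 CPM) were not higher. DUOXA2 is a given gene, whose part in this was fixed by the choice. Among genes of the squamous and urothelial surface, 5 of 10 were at least 2-fold higher and 1 lower, LY6D, with 9.04 against 31.4 CPM. The uroplakins UPK1A (109 against 20.0 CPM) and UPK2 (22.1 against 3.77 CPM), the surface antigen PSCA (1156 against 282 CPM) and the sciellin gene SCEL (38.8 against 10.3 CPM) led the higher ones. UPK2 reached 10 CPM in cluster 4 alone, and LY6D in the other cells alone. Of 8 duct transport genes, 1 was at least 2-fold higher, SCNN1A, a subunit of the epithelial sodium channel (273 against 84.7 CPM). Of 12 junction genes, 2 were at least 2-fold higher, among them the occludin gene OCLN (153 against 53.1 CPM), and 0 lower, while CLDN1 (292 against 548 CPM) and PKP1 (55.7 against 105 CPM) were below the other cells by less than 2-fold.

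Keratins were compared by kind. Of 3 measured basal and squamous keratins, 2 were at least 2-fold lower and 1 higher. KRT5, the basal keratin, had 78.1 against 1024 CPM, a ratio of 0.0762 (0.0719 to 0.0808), and KRT15 had 2.90 against 19.9 CPM. TP63, the transcription factor of basal cells, had 7.76 against 82.9 CPM, and S100A2, the 1 of 7 measured S100 genes at least 2-fold lower, 264 against 1621 CPM. Cluster 4 was the lowest of the 12 day 2 clusters for KRT5 and TP63. KRT15 and TP63 reached 10 CPM in the other cells alone, which fixed their direction. The 1 higher gene of the list was KRT4 (89.6 against 43.3 CPM). Of 4 keratins of simple epithelia, KRT8 alone was at least 2-fold higher (2236 against 955 CPM), while KRT18 had 394 against 246 CPM, KRT7 3026 against 1981 CPM and KRT19 4569 against 5205 CPM.

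Cell division genes were lower as well. Of 12 S phase genes 8 were at least 2-fold lower, with a median difference of -1.68, and of 15 genes of G2/M and mitosis 12 were, with a median of -2.46. None of either list was at least 2-fold higher. Members such as CLSPN, UHRF1, MKI67 and TOP2A reached 10 CPM in the other cells alone, which fixed their direction. Summed over all listed genes in the files, without that filter, S phase genes had 169 against 390 CPM. Those of G2/M and mitosis had 75.9 against 329 CPM. MKI67 had 7 UMIs in cluster 4 and 1229 in the other cells, and TOP2A 14 and 2156 UMIs.

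Ligands and targets of the signalling pathways that the study follows gave a mixed picture. Of 6 Notch genes 4 were at least 2-fold lower, the ligands JAG2 (2.90 against 41.2 CPM), DLL1 (8.03 against 74.5 CPM) and JAG1 (32.2 against 70.9 CPM) and the target HES1 (182 against 525 CPM). Of 7 genes of TGF-beta and mesenchyme 4 were lower, among them TGFB1 (7.35 against 52.9 CPM) and SNAI2 (1.82 against 34.6 CPM). Of 7 BMP genes 3 were lower, BMP2, SMAD6 and SMAD7, and none was higher. JAG2, DLL1, TGFB1, SNAI2, SMAD6 and SMAD7 reached 10 CPM in the other cells alone, which fixed their direction. Of 3 measured WNT genes 1 was at least 2-fold higher, the WNT inhibitor DKK1, with 77.7 against 20.1 CPM.

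Lists of stress and inflammation differed less, where 4.96% of all genes were at least 2-fold higher and 3.92% lower. The NF-kB response had 0 of 10 genes at least 2-fold higher and 1 lower, NFKB1, with 18.1 against 39.1 CPM. Of 16 immediate early genes 1 was higher (JUND) and 4 were lower, and the median difference was -0.20. In the list of endoplasmic reticulum and amino acid stress, 1 of 13 genes was higher, the cystine transporter SLC7A11 (38.3 against 8.63 CPM), and 1 was lower. Glycolysis and hypoxia had 0 of 13 higher and 2 lower, VEGFA (24.01 against 124 CPM) and SLC2A1 (31.6 against 90.8 CPM). Of 5 genes of retinoid handling, ALDH1A1 (231 against 94.6 CPM) and RDH10 (42.9 against 20.7 CPM) were at least 2-fold higher.

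**Figure D3:**
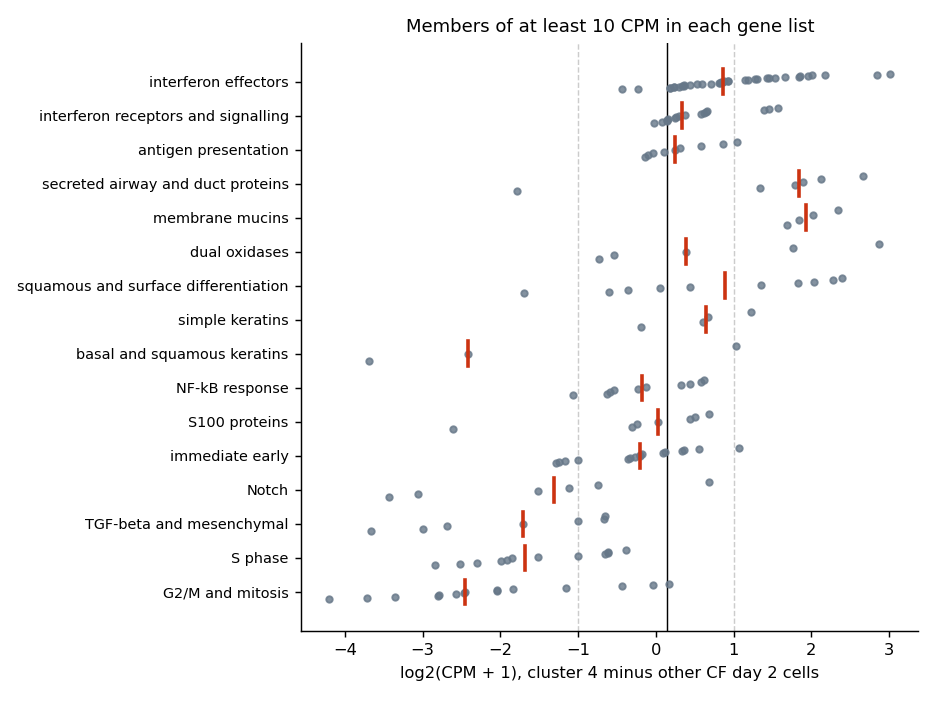
Difference of each gene of at least 10 CPM (points, log2 of CPM plus 1, cluster 4 minus the other CF day 2 cells) in 16 gene lists, with the median of each list in red, the median of all genes (0.14) as a solid line and 2-fold as dashed lines. Interferon effectors and membrane mucins lie mostly to the right and S phase, mitosis and TGF-beta genes to the left of the solid line. Some genes reached 10 CPM only on the side where they were higher, and the membrane mucins shown are also class markers of the study.

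Ranked over all genes of at least 50 CPM on either side, the highest in cluster 4 was MMP7, the protease matrilysin, with 771 against 80.5 CPM (difference 3.24). IFIT3 (3.02), LOC101676601 (2.93), DUOXA2 (2.87) and ISG15 (2.85) followed. The other 10 of the highest 15 were LOC101693702, MAL, VSIG2, LOC101680039, UPK1A, LOC101676065, ISG20, NEBL, LOC101684959 and MUC5AC. LOC101680039 had the highest level of them, 5515 against 916 CPM, and MAL, a membrane protein of apical transport, had 521 against 77.2 CPM. The LOC genes are protein coding and have no symbol in the annotation table used.

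The lowest was LOC101679740, with 17.6 against 324 CPM (difference -4.12). FST, the activin inhibitor follistatin, had 3.17 against 60.9 CPM, SFRP1, a secreted WNT inhibitor, 13.7 against 165 CPM, and PMEPA1, a target and inhibitor of TGF-beta signalling, 23.7 against 248 CPM. IGFBP3, which binds insulin-like growth factors, had 40.3 against 374 CPM. KRT5, TNS4, TP63, GZMA, DLL1, INKA1, KCNN4, TGFB1 and GUCY1A2 were also among the lowest 15. Of the genes that the study follows, HES1 was at least 2-fold lower, as given above, and the others differed by less than 2-fold on the scale of log2 of CPM plus 1. CFTR had 65 UMIs in cluster 4 and 191 in the others (4.38 against 2.18 CPM), so that CFTR tags were counted in this library labelled CF. The study describes these animals as making no CFTR mRNA. Which part of the gene was altered is not given in the sources used here, so that what these tags stand for was not tested. PDX1 had 4.65 against 3.15 CPM, SOX9 10.7 against 5.20 CPM, and PAX6 86.6 against 83.5 CPM. SOX2, named beside them, had 1 UMI in all.

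The effector genes were not spread over the cells in 1 way. To compare how many cells held a gene, every cell was thinned to 3000 UMIs, which left out 2 cells of cluster 4 and 37 others. No deposited class of these cells could be taken to lack interferon genes, so the lowest share in any day 2 cluster of at least 50 cells is given as the reference for free RNA. ISG15 was found in 15.2% of cluster 4 cells, 4.21% of the others and 1.33% of cluster 28, whose median was 15992 UMIs against 21261 in cluster 4 after that filter. Without thinning, 245 cells of cluster 4 (40.0%) and 18.2% of the others held ISG15. IFIT3 was found in 9.98% and 1.53%, and in 0 of 52 cells of cluster 26, which allows a share of up to 5.77%. That limit lies above the share in the other cells, so that it gives no reference for free RNA of IFIT3.

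IFI6 was common everywhere, in 90.3% of cluster 4 cells, 75.2% of the others and 68.0% of the lowest cluster, so that a UMI of IFI6 did not part the cells, and the share in the other cells was near that of the lowest cluster. ISG20 was found in 61.4%, 20.99% and 7.35%. DUOXA2 was found in 22.9% and 3.27%, and in 0 of 721 cells of cluster 1, which allows up to 0.416%. MMP7 was found in 61.7% and 10.0%, and in 0 of 52 cells of cluster 26, which allows up to 5.77%. SCGB1A1 was rare even in cluster 4, in 2.95% of cells (1.76 to 4.62%) against 0.727% (0.484 to 1.05%) of the others and 0 of 721 cells of cluster 1, and without thinning in 37 of the 613 cells (6.04%). KRT5 was found in 13.9% of cluster 4 cells and 85.6% of the others. Cluster 4 was itself the lowest cluster for KRT5, so that its share cannot be told apart from free RNA.

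A few cells held much of the ISG15, IFIT3 and SCGB1A1. The 10 cells with the most UMIs of a gene held 75.9% of the SCGB1A1 UMIs of cluster 4, 43.7% of those of ISG15 and 41.5% of those of IFIT3, with as many as 261 ISG15 UMIs in 1 cell. The same share was 18.5% for DUOXA2, 14.1% for ISG20, 12.6% for IFI6, 9.29% for DDX60 and 5.12% for B2M. Without its 10 top cells, cluster 4 had 9.73 CPM of SCGB1A1, 92.5 CPM of ISG15 and 36.5 CPM of IFIT3. These cells were picked for the gene in cluster 4 alone, so that no difference from the other cells was taken from these levels.

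**Figure D4:**
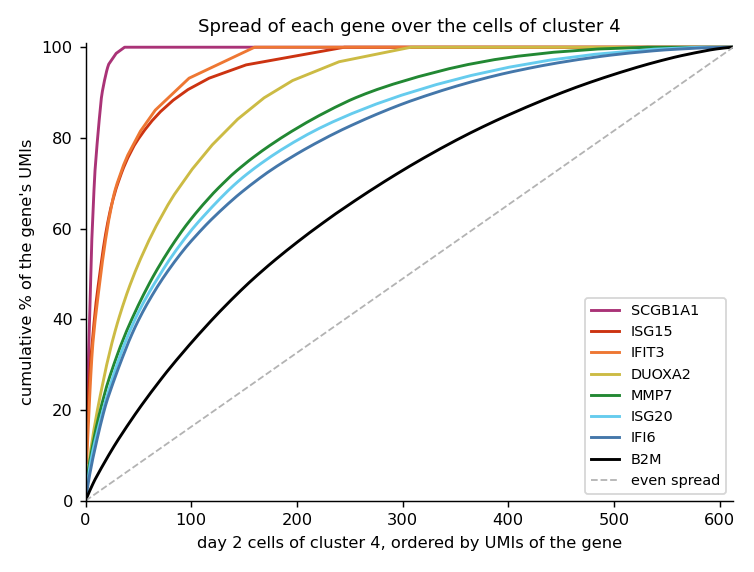
Cumulative percent of each gene's UMIs (vertical) over the 613 day 2 cells of cluster 4, ordered from the cell with the most UMIs of that gene (horizontal), with an even spread as a dashed line. SCGB1A1, IFIT3 and ISG15 reach 75.9%, 41.5% and 43.7% within 10 cells, while B2M, at 5.12%, lies nearest to the even spread.

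The summed effectors differed over most of the cluster and not in those cells alone. The median cell of cluster 4 had 4454 CPM of effectors and the median of the other cells was 1548 CPM. Of the 613 cells, 98.0% lay above the median of the others and 60.7% above their 95th percentile. With IFI6 and ISG20 left out the medians were 2028 and 970 CPM, and the same shares were 97.2% and 60.4%. The given genes ISG15 and IFIT3 are still in that sum. Membrane mucins had medians of 2509 and 226 CPM, and 100% of cluster 4 cells lay above the median of the others. The 4 that reached 10 CPM are class markers picked on these libraries, so that this order was largely fixed by that choice.

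Within the cluster, ISG15 and IFIT3 were found in the same cells more than either was with SCGB1A1. Over the 611 cells at 3000 UMIs, Pearson's r was 0.61 for ISG15 with IFIT3, 0.39 for ISG15 with ISG20 and 0.32 for IFI6 with ISG20. It was 0.02 for ISG15 with SCGB1A1 and 0.01 for ISG15 with IFNE. SCGB1A1 was found in only 18 of these cells, so that its value says little. Of the 160 cells with an IFIT3 UMI, 103 (64.4%, 56.4 to 71.8%) also held ISG15, which 40.0% of all 613 cells did. Of the 37 cells with SCGB1A1, 16 (43.2%, 27.1 to 60.5%) held ISG15. IFIT3 was held by 14 of the 37 (37.8%, 22.5 to 55.2%) and by 26.1% of all 613 cells. These cells share a library and differ in depth, and counts of 1 UMI weigh on the values. So do a few cells with many UMIs, as ISG15 at 3000 UMIs had a 95th percentile of 2 and a highest count of 75.

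Over the 30 CF clusters of all days, the genes most like ISG15 and those most like SCGB1A1 were sought. By Pearson's r of log2 CPM plus 1 over these clusters, among 10635 genes, ISG15 was most like IFIT3 (0.80), UBA7 (0.75), LOC101675223 (0.73), TMEM63B (0.73) and EPSTI1 (0.72). SCGB1A1 was most like LOC123392058 (0.92), LOC101684568 (0.87), LOC123387638 (0.79), LOC101675223 (0.79) and LOC101676601 (0.74). ISG15 and SCGB1A1 had an r of 0.44 with each other, and of 0.24 without cluster 4. The clusters differ in cell number and depth and share libraries.

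The other cells of the same deposited class gave a second comparison, chosen after the data had been seen. There were 1110 CF progenitor-class cells outside cluster 4, of which 529 were of day 5, 328 of day 7, 245 of day 9 and only 8 of day 2. Cluster and day therefore cannot be told apart in it. Of 7686 genes, 107 were at least 2-fold higher in cluster 4 (1.39%) and 139 lower (1.81%). Of 37 effectors 6 were at least 2-fold higher and 0 lower, with a median difference of 0.24. The 6 were IFI6 (2970 against 336 CPM), IFIT3 (61.2 against 9.76 CPM), ISG15 (161 against 35.99 CPM), ISG20 (658 against 176 CPM), IFIH1 (66.8 against 27.5 CPM) and IFIT2 (56.9 against 26.7 CPM). Of these only IFIH1 and IFIT2 are not among the genes given for the cluster. MX2 was lower in cluster 4, at 67.0 against 114 CPM. Of the later progenitors, 226 were of cluster 21, whose median cell held only 1043.5 UMIs, and without that cluster 6 effectors were again at least 2-fold higher.

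The 6 given genes were all at least 2-fold higher than in those progenitors, SCGB1A1 with 39.7 against 1.51 CPM and DUOXA2 with 143 against 46.4 CPM. They are leading genes of the cluster over all other CF cells, these progenitors among them. Their direction here was thus largely fixed by the choice. Some of what set cluster 4 apart at day 2 was shared with the later progenitors. MMP7 had 771 against 693 CPM, KRT5 78.1 against 53.5 CPM, and none of the 4 membrane mucins was at least 2-fold higher. Of 104 named genes at least 2-fold apart from the other day 2 cells, 28 were so in the same direction against the later progenitors, and 36 lay on the other side of 0. Many of the 104 were named for the size of their difference, and the share of all genes on the other side of 0 was not counted. Of all 385 genes at least 2-fold higher than in the other day 2 cells, 44 were at least 2-fold higher than in the later progenitors, where 1.39% of all genes were. Among the 36 on the other side of 0 were UPK1A, with 109 against 624 CPM, and MUC5AC, with 93.8 against 180 CPM. IFNE had 75.1 against 84.9 CPM.

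The highest genes against the later progenitors included KRT4 (89.6 against 10.6 CPM), the fatty acid binding protein FABP3 (122 against 21.5 CPM) and the pentose phosphate enzyme TKT (1879 against 387 CPM). Of 15 secreted airway and duct proteins measured in this comparison, 10 were at least 2-fold lower and 2 higher. Only 6 of this list were measured at day 2. Members under 10 CPM in cluster 4, such as WFDC2, were counted here only because the later progenitors held them higher. SCGB1A1, 1 of the 2 higher, is a given gene and reached 10 CPM in cluster 4 alone. Among the lowest of all genes, WFDC2 had 0.270 against 128 CPM, the trypsin inhibitor SPINK1 1.69 against 269 CPM, the trefoil peptides TFF2 and TFF3 1.75 against 222 CPM and 2.50 against 120 CPM, and lactoferrin (LTF) 9.78 against 261 CPM. The proton pump subunit ATP6V1B1 (4.59 against 67.5 CPM) and S100A4 (6.48 against 65.6 CPM) were also among the lowest 15. CFTR had 4.38 against 20.3 CPM.

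Across all days, cluster 4 had the highest ISG15, IFIT3, SCGB1A1, DUOXA2, IFI6 and ISG20 of the 30 CF clusters, an order that the choice of these genes had fixed. Over all 626 cells of cluster 4 ISG15 was at 186 CPM, and CF cluster 25, a progenitor cluster, was next at 80.8 CPM. The effectors summed to 6076 CPM in cluster 4 and 3257 CPM in cluster 29, which was next. Without IFI6 and ISG20 cluster 29 was first at 2720 CPM. Cluster 4 then had 2426 CPM, cluster 21 2327 CPM and cluster 17 2227 CPM. The other CF cells of day 2, 5, 7 and 9 had 21.5, 20.5, 7.64 and 8.26 CPM of ISG15, 762, 305, 252 and 185 CPM of IFI6, and 5.42, 0.632, 0.980 and 0.440 CPM of SCGB1A1. Of the 13 later cells of cluster 4, 8 held ISG15 and 8 held IFIT3. Their ISG15 UMIs numbered 441, of which 325 were in 1 cell, and none of the 13 held SCGB1A1.

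WT clusters had been made apart from the CF ones, and 2 of the 41 had more ISG15 than cluster 4. They were WT cluster 35 (1939 CPM) and WT cluster 33 (325 CPM), both named ductal, and the same 2 had more IFIT3. Cluster 35 was shallow, with a median of 1897.5 UMIs per cell. IFI6 and ISG20 were higher in cluster 4 than in any of the 41 WT clusters. SCGB1A1 was higher in WT clusters 35, 13 and 18, at 216, 76.1 and 59.1 CPM, of which the last 2 were low in ISG15.

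**Figure D5:**
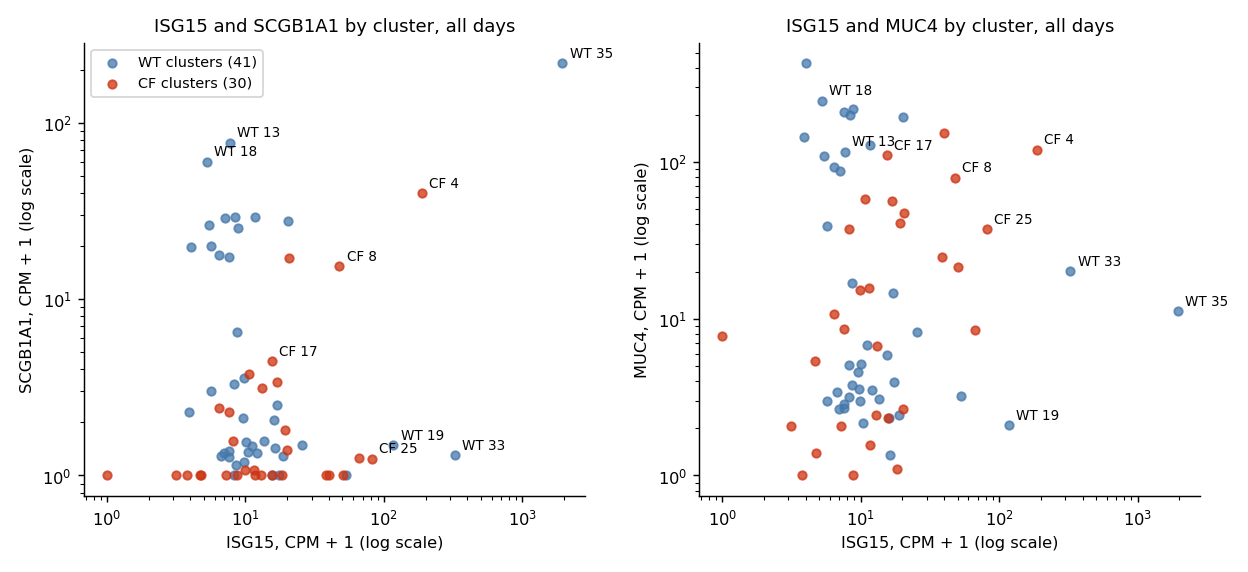
ISG15 (horizontal) against SCGB1A1 (left) and MUC4 (right) in the 30 CF (red) and 41 WT (blue) clusters over all days, as CPM plus 1 on log scales from summed UMIs. CF cluster 4 and WT cluster 35 are high in ISG15 and SCGB1A1 together, whereas WT cluster 33 has 325 CPM of ISG15 with SCGB1A1 near 0.

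WT cluster 33 held 130 WT cells of day 2 and was compared with the 6094 other WT cells of that day. It was 1 of the 2 WT clusters with more ISG15 and IFIT3 than cluster 4. It had been drawn from the same counts, so that its differences were described and not tested. Of 43 effectors 28 were at least 2-fold higher and 0 lower, with a median difference of 1.57, where 7.62% of all genes were higher and 6.81% lower. Members under 10 CPM in the other WT cells, such as EPSTI1, MX1, MX2, CMPK2 and USP18, were counted only because WT cluster 33 held them higher. ISG15 had 327 against 18.01 CPM and IFIT3 172 against 7.04 CPM. Of 36 effectors measured in both comparisons, the 15 that were at least 2-fold higher in cluster 4 were all among the 22 that were so in WT cluster 33. That overlap rests on the same filter on both sides and includes the given genes ISG15, IFIT3, IFI6 and ISG20. Levels of 28 of the 36 were higher in WT cluster 33 than in cluster 4. MX1, nearly undetected in cluster 4, had 17.4 CPM there.

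Of the other genes looked at, some lay in the same direction in both clusters and some did not. MMP7 was high in WT cluster 33 as well (392 against 9.45 CPM), as were MUC1 (1128 against 404 CPM) and IFNE (44.9 against 16.2 CPM), and KRT5 (168 against 1099 CPM) and TP63 (38.2 against 87.6 CPM) were low. SCGB1A1 had 0.371 against 12.9 CPM there, DUOXA2 30.8 against 36.2 CPM and MUC4 9.64 against 21.7 CPM, so that at day 2 none of the 3 was higher there than in the other WT cells. Over all days, the 166 cells of WT cluster 33 had 149 CPM of DUOXA2, and 5 of the 41 WT clusters had more DUOXA2 than cluster 4 at day 2. No test between genotypes was run, with 1 library of each.

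Over 7756 genes the profile of cluster 4 was closest to that of CF cluster 8 at day 2 (Pearson's r of log2 CPM plus 1, 0.975), then to CF cluster 22 (0.968). The progenitor clusters 17, 25 and 18 of all days followed at 0.966, 0.964 and 0.958, and WT cluster 33 at 0.953. Genes are not independent replicates. In cluster 8, against the other CF day 2 cells, which include cluster 4, 1 of 32 effectors was at least 2-fold higher and 0 lower, where 0.345% and 2.2% of all genes were.

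The later progenitor clusters held some of the effectors, each against the other CF cells of its day. Effectors under 10 CPM in the other cells of a library, such as IFIT3 for cluster 17, were counted only because the cluster held them higher. At day 5, cluster 17 had 8 of 35 at least 2-fold higher and 0 lower (all genes 4.77% and 5.42%), and its ISG15 was at 16.7 against 27.01 CPM. Those other cells include cluster 25 and 9 cells of cluster 4 with 403 ISG15 UMIs, which raise their level. Cluster 25 had 6 of 34 higher and 1 lower at day 5 (all genes 1.34% and 5.14%), with 94.01 against 18.8 CPM of ISG15. At day 9, cluster 18 had 5 of 35 higher and 1 lower (all genes 4.06% and 8.86%), with 7.35 against 8.39 CPM of ISG15. ISG15 was thus at least 2-fold higher than in the other cells of the same library in clusters 4 and 25 and not in clusters 17 and 18. In the WT day 2 library, cluster 19 had 14 of 35 effectors higher and 1 lower (all genes 4.22% and 6.41%), with 118 against 18.3 CPM of ISG15 and 0.502 against 13.5 CPM of SCGB1A1.

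The deposited pseudotime, a score of progress along a fitted lineage that the authors had derived from the same counts, placed the median of cluster 4 above that of the other CF day 2 cells. On lineage 1 its median was 33.01, where the scored cells among the other CF day 2 cells had 11.3 and the 826 scored CF cells of day 9 had 45.8. On lineages 2 and 3 the medians were 34.8 and 35.8, against 11.7 and 12.02 in the other day 2 cells, whose 95th percentiles were 31.3 and 51.5. CF cells of day 9 had a median of 52.04 on lineage 2, and only 2 of them were scored on lineage 3. All 613 cells had a score on each of the 3 lineages.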

How the data were processed

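Single-cell transcripts were measured in 8 libraries of PDE cultures, 1 for each genotype and day, and groups were taken from the sample titles. Per the submitters' notes and methods, UMIs had been counted by Cell Ranger (version 5.0.1, ferret assembly ASM1176430v1.1). The authors had then filtered cells in Seurat and removed doublets with DoubletFinder, so that no doublet caller was run. The authors deposited whole UMI counts of 27912 genes, unnormalized, and a cell table with library, cluster and class of 32945 cells. The percent of mitochondrial UMIs and the pseudotime score of each cell were used as deposited by the authors. Their normalized table, in natural log units as deposited by the authors, was not used. Which tags the counter discarded as shared between genes is not given in the sources used here.

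UMIs of retained cells were summed and scaled to CPM in Python 3.11.15 with numpy 2.4.6 and scipy 1.17.1. A pseudocount of 1 CPM and a minimum of 10 CPM on either side were applied. Intervals were exact at 95%, and a count of 0 was given the limit of 3 counts. All cover counting error only. With 1 library in each group, and a cluster drawn from the same counts, no test was run. The calculation was tested on simulated data. Genes named were the 6 markers of the cluster, the 15 highest and lowest genes of at least 50 CPM, all measured interferon effectors, up to 4 members of each other list by size of difference, the genes followed by the study and SOX2, and the 5 genes most like ISG15 and SCGB1A1. Other genes named as members of a list or in the comparison with later progenitors were chosen after their values were seen. The cluster, its markers and the 38 gene lists were chosen with earlier results of these data known, and class markers were those that the study had picked on these libraries. Some genes that this rule names are not reported here. Alternatives changed the scaling (edgeR 4.0.16, DESeq2 1.42.0), pseudocount, filter, weighting and choice of cells.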

Additional observations from a re-analysis of the deposited data

How the results depend on the processing

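No alternative put a measured interferon effector at least 2-fold lower, and at the 2-fold limit 13 to 19 of them were higher, with medians from 0.71 to 0.97. These counts include the given genes ISG15, IFIT3, IFI6 and ISG20. They were 36.1 to 47.2% of the effectors measured, against 41.7% in the main comparison. The 19 were of 49 effectors (38.8%), without a filter on low values. Past 4-fold, 4 effectors were higher, and of all genes 46 were higher and 102 lower. Without a filter on low values 608 of 17739 genes were at least 2-fold lower (3.43%), against 3.92% in the main comparison. With cells thinned to 3000 UMIs 612 of 7907 were higher (7.74%), against 4.96%. Over all 4 days UPK1A turned to -0.52, the only 1 of the 104 named genes past 2-fold to change direction, and 24 of them were under 2-fold in at least 1 alternative. The alternative against other CF day 2 progenitors was not run, since there were 8 such cells. Against the later progenitors 5 to 6 effectors were higher, with medians from 0.17 to 0.25, over 4 alternatives that were chosen after seeing the data, as was leaving out the 5% of cells with the most effector UMIs (14 effectors). No paired analysis was possible because each genotype and day had 1 library and cells were not traced to animals, and for the same reason no replicate could be left out. The spread between animals is unknown, and effectors with few UMIs, such as MX1 and BST2, have wide counting intervals.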
